A study of Mus musculus with 88 samples.

Results

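Non-neuronal and neuronal nuclei of the medial prefrontal cortex (mPFC) of naive mice were compared by nuclear RNA-seq. The comparison takes 6 of the 88 samples of the series, namely 3 NeuN- and 3 NeuN+ libraries of naive mPFC, chosen by their labels alone. All animals of these groups were untrained C57BL/6J mice of 4 months that stayed in the home cage, with no transgene and no treatment in either group. Nuclei were fixed, stained with an antibody against NeuN and sorted by flow cytometry, after white matter and meninges had been taken off, so that the NeuN- group holds every nucleus without the stain and the NeuN+ group every nucleus with it. The same 2 fractions at 10 and 30 minutes after contextual fear conditioning (CFC), the same 2 fractions of naive hippocampus, and hippocampal nuclei of saline-injected mice sorted into NeuN+, GFAP+, PU.1+ and 3X- populations (3X- being negative for the other 3 markers) serve below as further libraries. In a check, the same populations from mice injected with corticosterone 30 minutes before collection replace the saline ones.

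NeuN is the product of *Rbfox3*, an RNA-binding protein that most mature neurons make and glia do not. A NeuN- sort of cortex therefore pools several cell types: astrocytes, which take up glutamate and potassium, oligodendrocytes, which wrap axons in myelin, their precursors, microglia, the macrophages of the brain, and the cells of blood vessels. Neurons of the cortex are mainly glutamatergic projection neurons and GABAergic interneurons. Because whole nuclei were sequenced and reads were counted over introns and exons, the values describe unspliced as well as spliced RNA in the nucleus. In such pools, fewer cells of a type and less RNA per cell cannot be told apart.

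The 6 libraries were of similar depth. Total counts were 11511665, 11322938 and 10573397 in NeuN- libraries, against 11610158, 12049011 and 12393509 in NeuN+ libraries, and between 22197 and 23477 genes had at least 1 count. Pearson's r across genes was 0.9915 to 0.9944 within a fraction and 0.7451 to 0.7795 between fractions, over genes, which are not independent replicates. The labels number the replicates without saying that they are separate animals, so p-values measure the spread between these libraries.

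*Rbfox3*, on chromosome 11 (GRCm38, 118489762 to 118911597), checked the sort. It was measured at 14.7, 18.97 and 50.4 normalised CPM (counts per 1000000 counts of the TMM-scaled library) in NeuN- libraries, against 2068, 1942 and 2194 CPM in NeuN+ libraries, a log2 difference of -6.22 (SE 0.32; adjusted p = 2.43e-14, edgeR). All log2 differences below are NeuN- minus NeuN+, so that a negative value means lower in NeuN-. Each SE is the absolute log2 difference divided by the square root of the test's F statistic, and not a fitted standard error. For genes with few reads in 1 fraction it can be too small. *Opalin*, below, moved by more than its SE when 1 library was left out. NeuN- replicate 3 stood apart from the other NeuN- libraries, and without it the *Rbfox3* difference was -6.92. The 20 pan-neuronal markers summed to 1902, 1978 and 2345 CPM in NeuN- replicates 1 to 3, against 28670 to 29310 CPM in NeuN+ libraries. Endothelial markers summed to 318, 338 and 600.2 CPM in the same NeuN- libraries, against 24.9, 28.9 and 46.2 CPM in NeuN+ libraries. The part that this library's makeup plays in the results was not tested beyond leaving it out. Leaving out any 1 library moved the log2 difference of 42 named genes by over 1.5 times in fold, and the value without that library stands beside each printed difference that moved.

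Of 15650 genes tested, those with a mean gene-body FPKM above 0.2 in at least 1 fraction, 5814 (37.2%) were higher and 5599 (35.8%) lower in NeuN- nuclei at an adjusted p under 0.05 (edgeR), and 4237 were not called. These 37.2% and 35.8% are the background to every count of list members below. Among called genes 97.53% had groups that did not overlap. Calls and overlap rest on the same naive libraries, so this share adds no support. The share over all genes tested is not given here. The median log2 difference over all genes tested was 0.04. This balance rests on the TMM scaling, which sets the bulk of genes to no change: with library totals alone the median moved to 0.55, and 9016 genes were called higher and 3437 lower.

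The large differences were not balanced. More than 6 on the log2 scale separated the fractions for 645 genes called higher, against 94 called lower, and more than 8 separated them for 195 genes called higher, against 2 called lower. Genes with a mean count of at least 50 in the fraction where they were higher included 49 that were called higher in NeuN- and had no read in any NeuN+ library, and none that were called lower and had no read in any NeuN- library. Genes called higher took 51.11% to 52.41% of the counts in NeuN- libraries, against 14.83% to 14.93% in NeuN+ libraries. Genes called lower took 33.19% to 34.35% of the counts in NeuN- libraries, against 74.71% to 74.91% in NeuN+ libraries. *Rbfox3* RNA was still read in every NeuN- library, while several defining glial genes had no read at all in NeuN+ libraries.

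**Figure D1:**
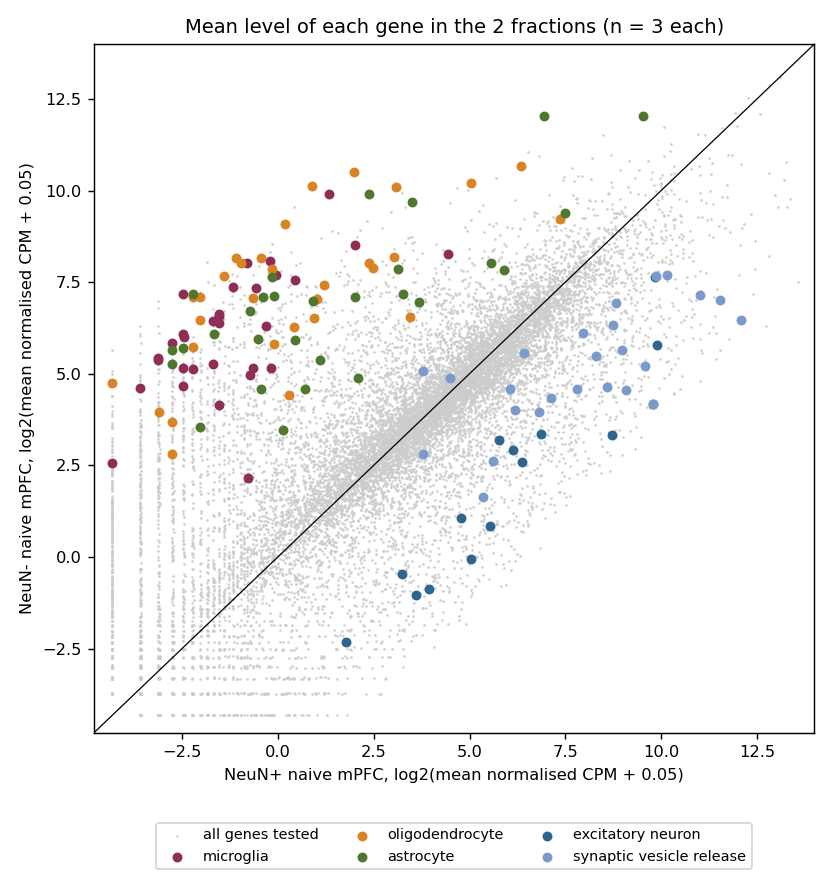
Mean level of each gene tested in NeuN- (y axis) and NeuN+ (x axis) nuclei of naive mPFC, as log2(mean normalised CPM + 0.05), n = 3 libraries each; the line marks equal levels. The 31 microglial genes tested lie near the left edge, at low values in NeuN+, while the 15 excitatory neuron and 25 synaptic vesicle release genes tested keep measurable values in NeuN-.

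Astrocyte markers were higher in NeuN- nuclei for all 29 that could be tested of 30 listed, with a median log2 difference of 5.50, against 0.04 over all genes tested. *Slc7a10*, a transporter of small neutral amino acids, was at 158, 145 and 133 CPM in NeuN- libraries, against 0.204, 0 and 0.288 CPM in NeuN+ libraries. The groups lay far apart, with a log2 difference of 9.70 (SE 0.22; adjusted p = 7.48e-21, edgeR), or 10.37 without NeuN+ replicate 3. *Gja1*, the main gap junction protein of astrocytes, was at 99.6, 112 and 103 CPM in NeuN- libraries, against 0.409, 0.293 and 0.962 CPM in NeuN+ libraries. *Slc1a3*, the glutamate transporter GLAST, had the same log2 difference as *Gja1*, 7.53 (*Gja1* was at 8.19 without NeuN+ replicate 3), at 980.5, 1012 and 889 CPM in NeuN- libraries, against 3.37, 5.18 and 6.92 CPM in NeuN+ libraries. The second glutamate transporter, *Slc1a2* (GLT-1), was the more abundant and the less selective. It averaged 4206 ± 79.7 CPM in NeuN- libraries and 731 ± 26.8 CPM in NeuN+ libraries (SD, n = 3 each), a log2 difference of 2.52. *Gfap*, the intermediate filament by which astrocytes are often stained, was scarce in this cortex, at 8.80, 13.2 and 12.8 CPM in NeuN- libraries, against 0, 0.293 and 0.288 CPM in NeuN+ libraries. Without NeuN- replicate 3 the list's counts were the same.

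Oligodendrocyte markers were higher for 31 of 31, with a median of 7.02. *Opalin*, a membrane protein of myelinating cells, was at 145, 130.2 and 135 CPM in NeuN- libraries, against 0.102, 0.0977 and 0.385 CPM in NeuN+ libraries (log2 difference 9.37, or 10.28 without NeuN+ replicate 3, SE 0.20; adjusted p = 2.84e-21, edgeR). *Mog*, a glycoprotein of the outer myelin surface, was at 144, 127 and 141 CPM in NeuN- libraries, against 0.307, 0 and 0.192 CPM in NeuN+ libraries. For both genes the lowest NeuN- value was far above the highest NeuN+ value. *Olig2*, a transcription factor of the whole lineage, had 1077 counts in NeuN- libraries, at 29.1, 28.5 and 22.3 CPM, against 0 counts in each NeuN+ library. Set against a floor of 3 counts over the group, *Olig2* was at least 270-fold higher in NeuN-. *Sox10*, its partner in the lineage, averaged 88.9 ± 12.6 CPM in NeuN- libraries and 0.196 ± 0.0954 CPM in NeuN+ libraries.

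The precursor list was the least uniform of the glial lists. Of 20 genes, 18 were higher, 1 was lower and 1 was not called, with a median of 3.98. *Pdgfra*, the growth factor receptor that defines these cells, was at 156, 143 and 138 CPM in NeuN- libraries, against 0.716, 0.586 and 0.962 CPM in NeuN+ libraries (log2 difference 7.57). *Gpr17*, a receptor of precursors about to differentiate, averaged 65.8 ± 7.90 CPM in NeuN- libraries and 0.260 ± 0.144 CPM in NeuN+ libraries. The gene called the other way was *Pcdh15*, a protocadherin, at 636, 617 and 553 CPM in NeuN- libraries, against 1329, 1346 and 1297 CPM in NeuN+ libraries (log2 difference -1.14; adjusted p = 4.86e-13, edgeR). *Tnr*, a matrix protein of precursors and of the nets around interneurons, differed by only 0.17 (adjusted p = 0.0533, edgeR). It was called higher under several other settings, among them without NeuN- replicate 3 (0.24), when 19 genes of the list were higher.

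Microglial markers had the largest median of all lists, 8.08, and all 31 were higher. *Siglech*, a lectin of microglia, was at 149.8, 150.4 and 136 CPM in NeuN- libraries, against 0.102, 0.0977 and 0.192 CPM in NeuN+ libraries, a log2 difference of 10.00 (SE 0.18; adjusted p = 3.71e-22, edgeR). *Cx3cr1*, the receptor for the neuronal chemokine fractalkine, was at 192, 181 and 191 CPM in NeuN- libraries, against 1.12, 1.37 and 1.44 CPM in NeuN+ libraries. The members spanned a wide range of levels. *Mertk*, a receptor for apoptotic cells that astrocytes also use, averaged 958 ± 4.91 CPM in NeuN- libraries and 2.46 ± 0.544 CPM in NeuN+ libraries. *Csf1r*, on whose signal microglia depend, averaged 271 ± 6.62 CPM in NeuN- libraries and 0.812 ± 0.475 CPM in NeuN+ libraries. *Tyrobp*, a signalling adaptor, had 238 counts in NeuN- libraries and none in NeuN+ libraries, at least 59.8-fold higher in NeuN-. The smallest difference was that of *Aif1*, the gene of the staining marker Iba1, at 3.04 on the log2 scale, or 3.66 without NeuN+ replicate 1. Summed over the list, microglial markers were at 4072, 3980 and 4049 CPM in NeuN- libraries, against 36.0, 34.5 and 45.7 CPM in NeuN+ libraries.

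Microglia are specified by PU.1, the product of *Spi1*, which was at 39.3, 45.2 and 40.4 CPM in NeuN- libraries, against 0, 0.195 and 0 CPM in NeuN+ libraries. PU.1 binds a purine-rich site, and promoters (RefSeq, GRCm38.p6, from 250 bases before to 50 after each start) were searched for its core letters GAGGAAG on either strand, where the other strand reads CTTCCTC. Of the 31 microglial genes 22 matched the promoter table, with 26 promoters, of which 10 (38.5%) held the letters, against 13.6% of all 32851 promoters. The share was 19.6% of 1157 promoters of genes higher by more than 4 on the log2 scale, and 10.0% of 558 promoters of genes lower by more than 4. It was also above that of all promoters in the perivascular macrophage and blood list (46.7% of 15 promoters), the endothelial list (30.4% of 23) and the ependyma and choroid plexus list (50.0% of 10), and by less in the pan-neuronal (4 of 21), oligodendrocyte (18.8% of 32), excitatory neuron and cortical layer lists (15.0% of 20 each). On the gene's own strand alone, the microglial share was 19.2%, against 7.54% of all promoters. A match describes letters and not a bound site. Other letters were searched too. In microglial promoters those of the NEUROD-type E-box (CAGATG) were at 30.8%, against 17.2% of all promoters. TATAAA was at 19.2%, against 13.6%, and the EGR letters at 7.69%, against 2.91%. The SOX letters (ACAAAG) were at 15.4%, against 18.7%, and the CRE letters at 0.0%, against 1.79%. A share above that of all promoters was therefore not particular to the PU.1 letters. To show where the letters lie, 4 windows of microglial promoters follow, each 5′ to 3′ on the gene's strand and with the matched letters in capitals. They are from *Dock2*, a guanine exchange factor of blood-lineage cells (chr11:34783906-34783944, minus strand), *Inpp5d*, a lipid phosphatase (chr1:87620262-87620311, plus strand), *Itgam*, the integrin CD11b (chr7:128062526-128062592, plus strand), and *C1qc*, a chain of the first complement component (chr4:136893072-136893138, minus strand).
Dock2: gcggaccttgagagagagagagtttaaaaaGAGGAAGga
Inpp5d: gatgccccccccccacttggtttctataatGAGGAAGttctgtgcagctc
Itgam: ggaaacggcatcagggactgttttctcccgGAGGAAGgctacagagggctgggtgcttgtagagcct
C1qc: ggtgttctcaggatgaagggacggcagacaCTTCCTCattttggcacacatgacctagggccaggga

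The 4 genes of these windows are from the microglial list, whose 31 members were all higher in NeuN-, so their side was fixed by that choice. Windows of other members with the letters, among them *Trem2* and *P2ry13*, are not shown. *Dock2* was at 264, 254 and 263 CPM in NeuN- libraries, against 0.204, 0.391 and 0.962 CPM in NeuN+ libraries. *Inpp5d* averaged 364 ± 3.16 CPM in NeuN- libraries and 3.99 ± 0.459 CPM in NeuN+ libraries. *Itgam* averaged 82.9 ± 3.23 CPM in NeuN- libraries and 0.294 ± 0.0901 CPM in NeuN+ libraries. *C1qc* was the least abundant, at 33.5, 39.4 and 31.8 CPM in NeuN- libraries, against 0.102, 0.391 and 0 CPM in NeuN+ libraries.

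Cells of vessels and meninges were also on the NeuN- side. Every tested member was higher in the endothelial list (17 of 24 tested, median 5.16), the mural list (8 of 14 tested, 6.21) and the fibroblast list (7 of 14 tested, 4.73). Of the ependymal list only 2 of 12 were tested, both higher (median 5.01). Summed over all 12, that list was close between the fractions. It was at 3.419, 6.105 and 5.006 CPM in NeuN- libraries, against 3.475, 5.371 and 5.0 CPM in NeuN+ libraries. *Flt1*, a receptor for vascular endothelial growth factor, was at 66.4, 67.0 and 129 CPM in NeuN- libraries, against 0.409, 0.684 and 3.75 CPM in NeuN+ libraries (log2 difference 5.72, or 7.28 without NeuN+ replicate 3, SE 0.62; adjusted p = 2.06e-08, edgeR). It was highest in replicate 3 of both fractions. *Pdgfrb*, the receptor of pericytes, did not share that pattern in NeuN-, at 95.6, 93.0 and 90.8 CPM in NeuN- libraries, against 0.716, 1.17 and 2.12 CPM in NeuN+ libraries. *Col1a2*, a collagen of fibroblasts, averaged 11.5 ± 2.41 CPM in NeuN- libraries and 0.224 ± 0.389 CPM in NeuN+ libraries. Blood was scarce: of 16 blood and perivascular macrophage markers 3 passed the filter, of which 2 were called higher, and *Hbb-bs*, a beta globin chain, averaged 1.10 ± 0.204 CPM in NeuN- libraries and 0.0992 ± 0.0977 CPM in NeuN+ libraries.

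**Figure D2:**
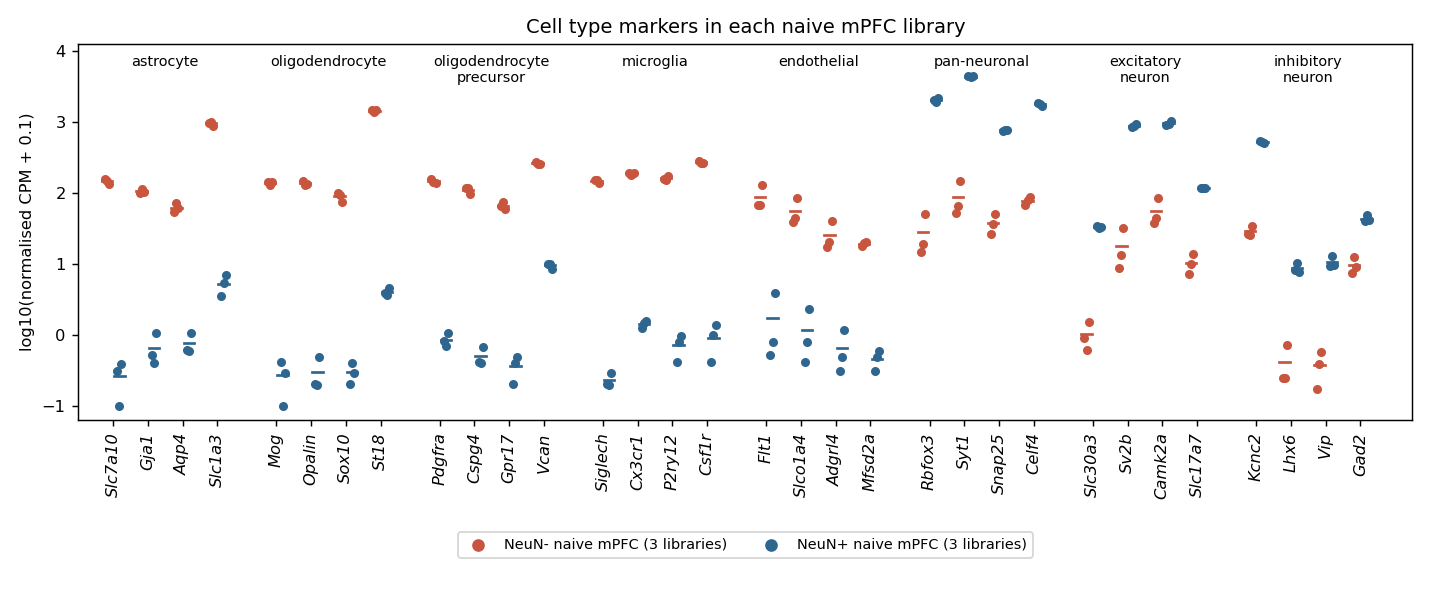
Normalised CPM of 4 markers for each of 8 cell types, on a log10(CPM + 0.1) scale, in each library of naive mPFC; points are libraries (NeuN- left, NeuN+ right, n = 3 each) and bars the means. The glial and endothelial markers stand higher in every NeuN- library, the neuronal ones higher in every NeuN+ library, and the third NeuN- point of *Rbfox3* and *Syt1* lies above the others of its fraction.

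Pan-neuronal markers were lower in NeuN- nuclei for 20 of 20, with a median of -3.29. *Syt1*, the calcium sensor of transmitter release, was at 52.1, 66.1 and 145 CPM in NeuN- libraries, against 4401, 4302 and 4397 CPM in NeuN+ libraries (log2 difference -5.64, SE 0.28; adjusted p = 1.08e-14, edgeR). *Snap25*, a protein of the fusion machinery, was at 25.97, 35.9 and 49.6 CPM in NeuN- libraries, against 749, 776 and 780.1 CPM in NeuN+ libraries. The list was far from uniform. *Map2*, a microtubule protein of dendrites, was at 392, 413 and 419 CPM in NeuN- libraries, against 787, 768 and 762 CPM in NeuN+ libraries, a log2 difference of only -0.92. *Elavl3*, an RNA-binding protein, differed by -0.67.

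Excitatory neuron markers were lower for 15 of the 15 tested, with a median of -4.13, or -4.53 without NeuN- replicate 3. *Slc17a7*, which loads vesicles with glutamate, was at 6.98, 9.96 and 13.7 CPM in NeuN- libraries, against 116, 118 and 117 CPM in NeuN+ libraries (log2 difference -3.52). *Sv2b*, a vesicle protein, was at 8.51, 13.2 and 31.8 CPM in NeuN- libraries, against 838, 878 and 925 CPM in NeuN+ libraries. In each of these genes the highest NeuN- value was that of replicate 3.

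Genes used as markers of cortical layers did not all follow the neurons. Of 18 tested, 12 were lower, 4 were higher and 2 were not called, with a median of -1.73. *Hs3st4*, a heparan sulfate enzyme of deep layers, averaged 23.9 ± 8.81 CPM in NeuN- libraries and 1430.0 ± 42.9 CPM in NeuN+ libraries (log2 difference -5.91). *Rorb*, a nuclear receptor used as a layer marker, was higher in NeuN-, at 488, 487 and 468 CPM in NeuN- libraries, against 152, 125 and 131 CPM in NeuN+ libraries (log2 difference 1.82; adjusted p = 5.22e-14, edgeR). *Enpp2*, which makes lysophosphatidic acid and is also a gene of oligodendrocytes, averaged 598 ± 28.6 CPM in NeuN- libraries and 164 ± 18.4 CPM in NeuN+ libraries. In the hippocampal saline populations *Rorb* was highest in GFAP+ nuclei, at 870.0 CPM, and *Enpp2* in 3X- nuclei, at 1436 CPM. The other 2 called higher were *Pou3f1*, by 2.49 on the log2 scale, and *Cux1*, by 0.16, whose libraries overlapped between the fractions and whose call was lost without NeuN+ replicate 1 or 2.

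Interneuron markers were split as well. Of 19 tested, 12 were lower, 5 were higher and 2 were not called, with a median of -1.42. *Lhx6*, a transcription factor of interneurons from the medial ganglionic eminence, was at 0.145, 0.145 and 0.626 CPM in NeuN- libraries, against 7.97, 10.1 and 7.60 CPM in NeuN+ libraries (log2 difference -4.79, or -5.76 without NeuN- replicate 3). *Vip*, a neuropeptide, averaged 0.278 ± 0.199 CPM in NeuN- libraries and 10.5 ± 1.93 CPM in NeuN+ libraries. *Gad1* and *Gad2*, the 2 enzymes that make GABA, differed less. *Gad1* was at 20.7, 23.6 and 21.9 CPM in NeuN- libraries, against 42.1, 46.6 and 41.1 CPM in NeuN+ libraries (log2 difference -0.97). *Gad2* was at 7.20, 12.4 and 8.92 CPM in NeuN- libraries, against 39.9, 48.0 and 40.7 CPM in NeuN+ libraries (log2 difference -2.17). *Sox6*, shared by interneurons and oligodendrocyte precursors, averaged 667 ± 11.9 CPM in NeuN- libraries and 109 ± 4.93 CPM in NeuN+ libraries. *Maf* and *Calb2* were also called higher, by 0.99 and 2.85 on the log2 scale. In the hippocampal saline populations 3 of these 5 genes were highest in GFAP+, 1 in PU.1+ and 1 in 3X- nuclei.

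Striatal projection neuron genes, which would mark striatum taken along with the cortex, passed the filter for 6 of 13. These 6 were lower, and *Drd1*, a dopamine receptor that deep cortical neurons also make, was at 0.0727, 0 and 0.547 CPM in NeuN- libraries, against 3.88, 3.22 and 4.04 CPM in NeuN+ libraries. Other members were far more abundant. The 13 summed to 189.3, 195.9 and 195.9 CPM in NeuN- libraries, against 1735, 1911 and 1775 CPM in NeuN+ libraries. Whether striatum was taken along was not tested.

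Called genes were ranked by their log2 difference, leaving out those with overlapping libraries or with a mean under 50 counts on the higher side, and the first 15 of each direction are given. Of the 15 higher in NeuN-, 10 had no read in any NeuN+ library. *Bin2*, a membrane-bending protein of blood-lineage cells, led them, at 54.8, 49.1 and 47.6 CPM in NeuN- libraries, against 0 in each NeuN+ library. With 2036 counts in NeuN-, *Bin2* was at least 512-fold higher. The long noncoding RNA *C030018K13Rik* was at least 343-fold, *Rhoh*, an atypical GTPase of blood-lineage cells, at least 321-fold, and *Susd3*, *Tmem98* and *Klhl6* each at least 213-fold higher. *Smad6*, an inhibitor of BMP signalling, was at least 174-fold, *Gal3st4*, a sulfotransferase, at least 160-fold, and *Csf2rb*, the common beta chain of several cytokine receptors, at least 150-fold higher. The other 5, *Gm42756*, *1700047M11Rik*, *Folh1*, *Cyp4f15* and *Plxnb3*, had 1 or 2 counts over the NeuN+ libraries. *Plxnb3*, a semaphorin receptor, was at 117, 115 and 97.8 CPM in NeuN- libraries, against 0, 0.195 and 0 CPM in NeuN+ libraries. In hippocampal saline libraries, which took no part in the choice, 6 of the 15 genes were highest in PU.1+, 6 in 3X- and 3 in GFAP+ nuclei, and none in NeuN+ nuclei.

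The 15 genes lower by the most ran between -7.53 and -6.54, and 13 of them are not annotated as protein-coding. Only *Lin28b* and *Tdrd5* are. These values rest on few NeuN- reads: for 9 of the 15 leaving out 1 NeuN- library moved the fitted difference by over 1.5 times in fold, to between -10.66 for *Gm12371* (without replicate 3) and -6.24 for *Gm38073* (without replicate 1), and all 9 remained called. Without replicate 3, *Gm12371* had no NeuN- read left, so that its value is no bound. *Lin28b*, a binder of let-7 precursors best known from early development, was at 0.291, 0.363 and 0.939 CPM in NeuN- libraries, against 57.2, 58.7 and 53.8 CPM in NeuN+ libraries (log2 difference -6.73, SE 0.19; adjusted p = 3.49e-19, edgeR), or -7.37 without NeuN- replicate 3. *Tdrd5*, a Tudor domain protein known from the germ line, was at 0.0727, 0.145 and 0.469 CPM in NeuN- libraries, against 20.3, 21.0 and 24.1 CPM in NeuN+ libraries. Among the noncoding ones, *Gm38413* (chromosome 5, 99730854 to 99753973) was at 0.0727, 0.145 and 0.469 CPM in NeuN- libraries, against 30.1, 28.4 and 31.2 CPM in NeuN+ libraries. The other 12, *9130024F11Rik*, *Gm34557*, *Gm17171*, *Gm12371*, *Gm10287*, *Gm38073*, *9430014N10Rik*, *Gm12576*, *Gm20063*, *Gm33533*, *Gm13601* and *Gm48530*, have no function in the annotation used. Some of them overlap other genes, and how reads in such overlaps were assigned is not given. All 15 were highest in NeuN+ nuclei among the hippocampal saline populations. *Lin28b* averaged 14.96 CPM there in NeuN+ nuclei and between 1.90 and 2.62 CPM in the other 3 populations.

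Per length of gene body, *Malat1*, a nuclear RNA of splicing speckles, was the most abundant protein-coding or long noncoding RNA of both fractions. Small RNA genes were not ranked. It was at 8873, 8908 and 8763 CPM in NeuN- libraries, against 8835, 8895 and 8627 CPM in NeuN+ libraries, and was not called (log2 difference 0.01; adjusted p = 0.863, edgeR). Next by FPKM came *Apoe*, the lipid carrier of astrocytes and microglia, in NeuN-, and *Meg3* and *Snhg11* in NeuN+. *Apoe* had an FPKM of 81.9 in NeuN- nuclei and 2.29 in NeuN+ nuclei. *Neat1*, the scaffold RNA of paraspeckles and a neighbour of *Malat1* on chromosome 19, was at 347, 309 and 330.2 CPM in NeuN- libraries, against 2.66, 3.52 and 4.04 CPM in NeuN+ libraries (log2 difference 6.58, SE 0.20; adjusted p = 1.15e-18, edgeR). *Gm3764*, *Ddx5*, *Slc1a2*, *Scd2* and *Bcan* were also among the 10 highest of NeuN-, as was *Rsrp1*, which was also among the 10 highest of NeuN+, beside *Mir124a-1hg*, *Miat*, *Gm27000*, *Srrm2*, *Rian* and *Rnf112*. Of 20 nuclear noncoding RNAs, 12 were lower, 5 were higher and 3 were not called.

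An imprinted stretch of chromosome 12 that begins at *Meg3* held many of the RNAs lower in NeuN-. *Meg3*, a maternally expressed long noncoding RNA, was at 101, 122 and 209 CPM in NeuN- libraries, against 5548, 5500 and 5183 CPM in NeuN+ libraries (log2 difference -5.23, SE 0.22; adjusted p = 5.95e-16, edgeR). *Rian*, downstream of it, was at 26.1, 30.7 and 48.3 CPM in NeuN- libraries, against 1225, 1218 and 1230 CPM in NeuN+ libraries. *Mirg*, at the far end, averaged 3.97 ± 1.65 CPM in NeuN- libraries and 159 ± 7.07 CPM in NeuN+ libraries. Between the first and last microRNA hairpin of the stretch (chr12:109571990-109743237), 42 hairpins passed the filter, of which 40 were lower, none was higher and 2 were not called. They summed to 66 counts in NeuN- libraries, against 1944 counts in NeuN+ libraries, and their median log2 difference was -5.06. Over the rest of the genome 207 hairpins were tested, of which 10 were lower and 14 higher. Reads over a hairpin in a library of nuclear RNA come from the host transcript or precursor, so these values are not levels of the mature microRNA, and neighbours in the stretch are not independent.

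**Figure D3:**
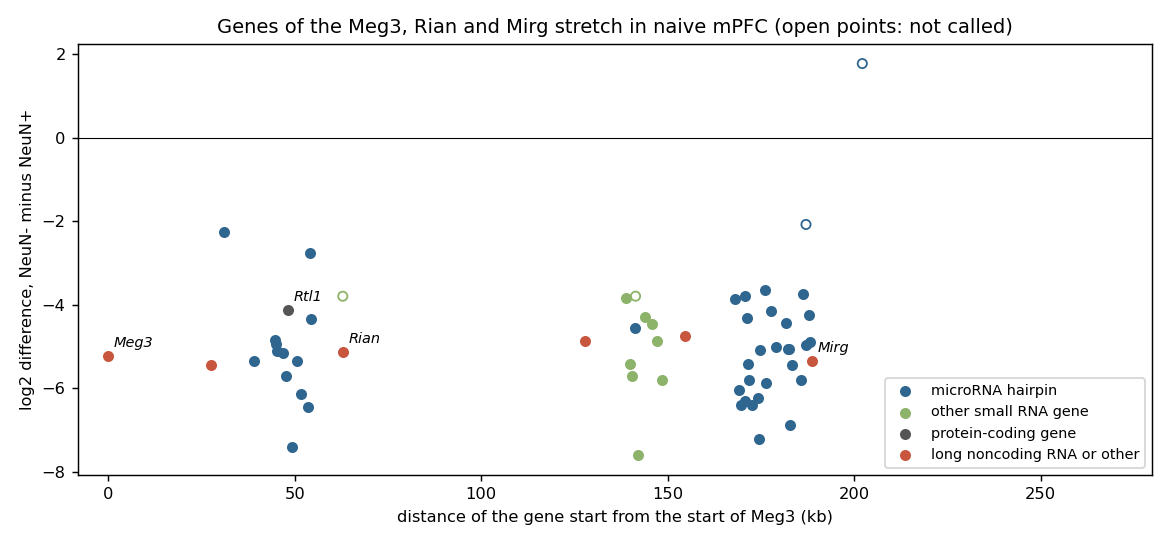
Log2 difference (NeuN- minus NeuN+) of the genes tested from the start of *Meg3* onwards on chromosome 12, against the distance of each gene's start from that of *Meg3* in kb; filled points are called and open points not. The called hairpins, small nucleolar RNAs and long noncoding RNAs lie below 0, and *Meg3*, *Rian* and *Mirg* sit at -5.23, -5.13 and -5.34.

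Mature sequences of hairpins with many reads or with a shared seed, chosen after their counts were seen, are given from RefSeq (GRCm38.p6), 5′ to 3′, with the seed (bases 2 to 8), which pairs with targets, in capitals. Which arm the reads would yield is not measured here. *Mir433* had 7 counts in NeuN- and 226 in NeuN+, *Mir431* 0 and 52, *Mir127* 1 and 74, *Mir1193* 4 and 112, *Mir379* 2 and 26, and *Mir411* 1 and 70. *Mir433*, *Mir431* and *Mir127* lie within the span of *Rtl1*, on the other strand. *Rtl1* had 98 counts in NeuN+ libraries, fewer than *Mir433* alone, so reads over *Mir433* were not also counted for *Rtl1*. The strand setting itself is not given. *Mir219a-2* of chromosome 2, a microRNA of oligodendrocyte differentiation, is shown as the hairpin with the largest difference the other way.
miR-219a-5p: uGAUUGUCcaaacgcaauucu
miR-433-3p: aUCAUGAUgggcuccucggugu
miR-431-5p: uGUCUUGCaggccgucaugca
miR-127-3p: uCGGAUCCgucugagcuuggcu
miR-379-5p: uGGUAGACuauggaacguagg
miR-1193-5p: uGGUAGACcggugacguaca
miR-379-3p: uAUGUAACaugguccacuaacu
miR-411-3p: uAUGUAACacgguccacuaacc

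The 5p arms of miR-379 and miR-1193 share the seed GGUAGAC, and the 3p arms of miR-379 and miR-411 the seed AUGUAAC. All are in the same stretch, so these pairs, chosen after their counts were seen, are not independent. Elsewhere, *Mir181a-2* and *Mir181b-2* of chromosome 2, whose 5p arms share the seed ACAUUCA, were both higher in NeuN-, with 6 and 7 counts in NeuN- libraries and none in NeuN+ libraries. Both calls were lost with DESeq2 and with the replicate block, and that of *Mir181a-2* also with each library left out. *Mir219a-2* had 84 counts in NeuN- libraries, at 2.55, 1.74 and 1.96 CPM, and none in NeuN+ libraries, at least 21.1-fold higher in NeuN-. *Mir219b* lies on the other strand of the same place and had 20 counts in NeuN- and 2 in NeuN+ libraries. How reads over both were assigned is not given.

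Transcription factors that set glial fate were higher for 29 of 30, with a median of 6.47. *Tcf7l2*, an effector of Wnt signalling in oligodendrocytes, averaged 322 ± 21.9 CPM in NeuN- libraries and 0.811 ± 0.578 CPM in NeuN+ libraries. *Ikzf1*, a factor of blood-lineage cells, had the largest difference of the microglial factors with reads in both fractions, 9.55 on the log2 scale. *Nfib* was the only member called lower, by 0.13 on the log2 scale (adjusted p = 0.0258, edgeR), a call that was lost without NeuN- replicate 1, 2 or 3 or NeuN+ replicate 1 or 2, and that became 0.38 with library totals alone. Factors known from neurons were divided: 16 of 24 were lower, 7 were higher and 1 was not called. *Bcl11b*, a factor of deep-layer projection neurons, was at 3.64, 5.52 and 8.99 CPM in NeuN- libraries, against 127, 151 and 139 CPM in NeuN+ libraries. *Myt1l*, which represses non-neuronal programmes, averaged 87.96 ± 7.49 CPM in NeuN- libraries and 1539 ± 25.6 CPM in NeuN+ libraries. *St18*, of the same family as *Myt1l*, went the other way by a wide margin, at 1491, 1393 and 1453 CPM in NeuN- libraries, against 3.78, 3.52 and 4.52 CPM in NeuN+ libraries (log2 difference 8.51, SE 0.12; adjusted p = 3.19e-23, edgeR). *Npas3* was also higher, at 1999 ± 87.7 CPM in NeuN- libraries and 412 ± 5.25 CPM in NeuN+ libraries.

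RNA-binding proteins of splicing were lower for 18 of 28 and higher for 9, with a median of -2.04, against 35.8% lower and 37.2% higher of all genes tested. *Srrm4*, which promotes neuronal microexons, was at 10.1, 14.7 and 18.3 CPM in NeuN- libraries, against 436, 458 and 472 CPM in NeuN+ libraries (log2 difference -4.99). *Qk*, the quaking protein that directs splicing of myelin RNAs, was at 1942, 1925 and 1988 CPM in NeuN- libraries, against 106, 116 and 114 CPM in NeuN+ libraries (log2 difference 4.12). *Msi2* was higher too, by 2.69.

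**Figure D4:**
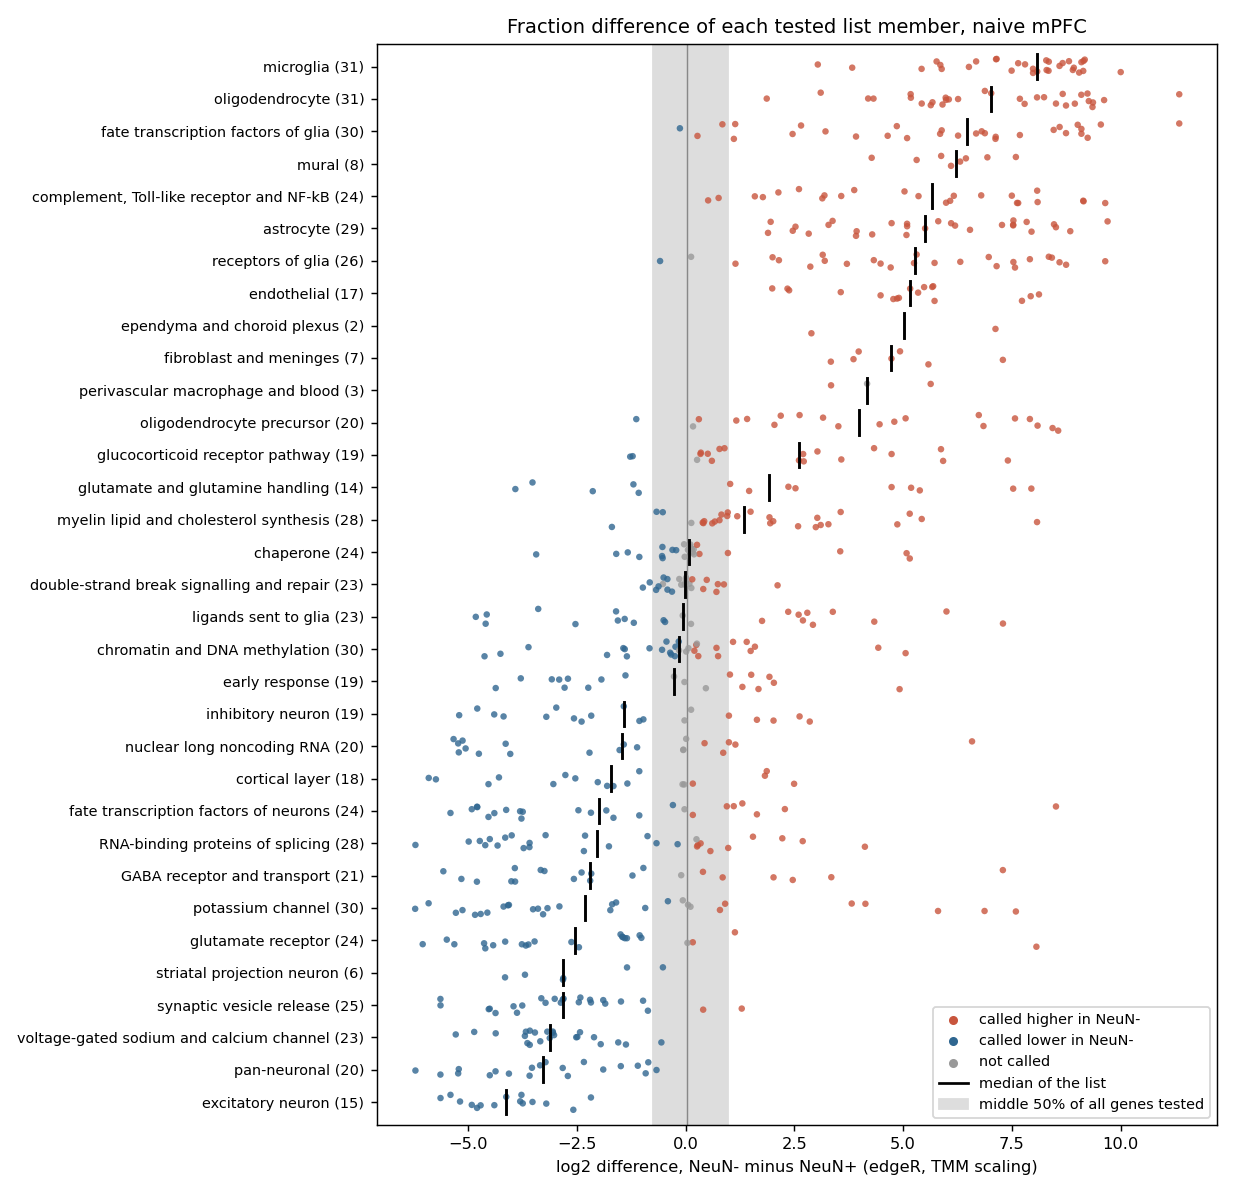
Log2 difference (NeuN- minus NeuN+) of each tested member of 33 gene lists in naive mPFC, with the number tested in parentheses; red points were called higher, blue lower and grey not, black bars are medians, and the grey band holds the middle 50% of all genes tested. Lists run between the microglial median of 8.08 at the top and the excitatory neuron median of -4.13 at the bottom, and the lists of DNA breaks, chromatin, chaperones and ligands centre near 0.

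Genes of the synapse were mostly lower in NeuN-, with a few members of each family on the other side. Of 25 genes of vesicle release 23 were lower (median -2.83), and *Vamp1* and *Vamp2*, vesicle proteins of the fusion complex, were higher by 1.29 and 0.40. *Rims1*, a scaffold of the release site, was at 127, 133 and 164 CPM in NeuN- libraries, against 2096, 2014 and 2130 CPM in NeuN+ libraries. Of 24 glutamate receptor genes 20 were lower, 3 were higher and 1 was not called (median -2.54). *Grin2a*, the NMDA receptor subunit of mature forebrain neurons, was at 20.6, 26.8 and 79.6 CPM in NeuN- libraries, against 2725, 2823 and 2811 CPM in NeuN+ libraries (log2 difference -6.05, or -6.85 without NeuN- replicate 3). *Grin2c*, another subunit of the same receptor, was at 224, 235 and 182 CPM in NeuN- libraries, against 0.818, 0.684 and 0.865 CPM in NeuN+ libraries (log2 difference 8.06, SE 0.18; adjusted p = 8.28e-21, edgeR). In the hippocampal saline populations *Grin2c* was highest in GFAP+ nuclei, at 412 CPM. *Grm3*, a metabotropic receptor, was higher by 1.13. *Grin3a*, a further NMDA receptor subunit, was higher by 0.16, a call that was lost without NeuN- replicate 1 or NeuN+ replicate 3.

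GABA receptor and transporter genes were lower for 14 of 21 and higher for 6 (median -2.20). *Gabra5*, a receptor subunit found largely outside synapses, averaged 1.92 ± 1.12 CPM in NeuN- libraries and 90.5 ± 1.99 CPM in NeuN+ libraries. *Gabrg1*, a gamma subunit, was higher, at 47.5, 48.9 and 48.6 CPM in NeuN- libraries, against 5.72, 5.18 and 3.37 CPM in NeuN+ libraries. All 23 voltage-gated sodium and calcium channel genes were lower (median -3.13), among them *Cacna1i*, a T-type calcium channel, by 5.29 on the log2 scale. Potassium channels were mixed, with 20 of 30 lower and 7 higher, against 35.8% lower and 37.2% higher of all genes tested. *Kcnh1*, a voltage-gated channel, was at 5.46, 5.45 and 17.9 CPM in NeuN- libraries, against 724, 661 and 738 CPM in NeuN+ libraries (log2 difference -6.22, or -6.99 without NeuN- replicate 3). *Kcnj10*, the inward rectifier with which astrocytes buffer potassium, was at 156, 134 and 140.5 CPM in NeuN- libraries, against 0.92, 0.488 and 2.21 CPM in NeuN+ libraries (log2 difference 6.87, or 7.66 without NeuN+ replicate 3). *Kcnj8*, a channel of pericytes, had 79 counts in NeuN- libraries and none in NeuN+ libraries, at least 19.9-fold higher in NeuN-.

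The cycle that moves glutamate and glutamine between astrocytes and neurons was divided between the fractions. *Glul*, the enzyme that makes glutamine, was at 236, 227 and 237 CPM in NeuN- libraries, against 6.13, 8.79 and 11.2 CPM in NeuN+ libraries (log2 difference 4.73, SE 0.12; adjusted p = 3.14e-20, edgeR). *Slc38a3*, which exports glutamine, was higher as well, by 7.95 on the log2 scale, or 8.83 without NeuN+ replicate 3. Of the 14 genes of this list 9 were higher and 5 lower, the lower ones including *Slc17a7*.

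Genes of myelin lipid and cholesterol synthesis were higher for 24 of 28, lower for 3 and not called for 1 (median 1.34). *Fa2h*, which makes the hydroxylated lipids of myelin, averaged 234 ± 14.8 CPM in NeuN- libraries and 0.848 ± 0.431 CPM in NeuN+ libraries. *Abca1*, which loads lipid onto apolipoprotein E, averaged 333 ± 3.65 CPM in NeuN- libraries and 11.4 ± 0.650 CPM in NeuN+ libraries. *Cyp46a1*, the hydroxylase by which neurons clear cholesterol, was among the 3 that were lower, by 1.70 on the log2 scale. Complement, Toll-like receptor and NF-kB genes were higher for all 24 that passed the filter of 31 listed (median 5.67). *C1qb* was at 44.8, 43.7 and 40.7 CPM in NeuN- libraries, against 0, 0 and 0.192 CPM in NeuN+ libraries. The widely made subunits differed least, *Rela* by 0.52 and *Nfkb1* by 0.76.

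Genes around the glucocorticoid receptor, the receptor of the stress hormone corticosterone, were higher for 16 of 19, lower for 2 and not called for 1 (median 2.60). The receptors themselves differed little. *Nr3c1*, the glucocorticoid receptor, was at 197, 189 and 209.5 CPM in NeuN- libraries, against 159, 151 and 157 CPM in NeuN+ libraries (log2 difference 0.35, SE 0.07; adjusted p = 0.000108, edgeR). *Nr3c2*, the mineralocorticoid receptor, was at 361, 343 and 368 CPM in NeuN- libraries, against 287, 284 and 277 CPM in NeuN+ libraries. Known target genes differed more. *Tsc22d3* was at 68.0, 74.9 and 91.8 CPM in NeuN- libraries, against 1.12, 1.27 and 1.44 CPM in NeuN+ libraries (log2 difference 5.92). *Sgk1*, a kinase induced by the receptor, was lower, at 52.5, 46.7 and 56.9 CPM in NeuN- libraries, against 131, 127 and 119 CPM in NeuN+ libraries. *Zbtb16*, another target, was the second one called lower, by 1.22, with 136, 159 and 277 CPM in NeuN- libraries, against 424, 432 and 475 CPM in NeuN+ libraries. *Fkbp5*, whose product restrains the receptor, was at 32.3, 40.2 and 60.8 CPM in NeuN- libraries, against 20.2, 24.1 and 33.0 CPM in NeuN+ libraries. Its groups overlapped, and its call (log2 difference 0.78; adjusted p = 0.0324, edgeR) was lost without NeuN- replicate 3 (0.51) and without NeuN+ replicate 1 (0.63) or 2 (0.73).

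Early response genes, which neuronal activity switches on within minutes, were divided in these home-cage animals. Of 19 that passed the filter of 27 listed, 9 were lower, 7 were higher and 3 were not called, and the median of -0.27 became 0.25 with library totals alone. Of all genes tested 35.8% were lower and 37.2% higher, so such a split was not particular to this list. *Npas4*, a factor that activity induces in neurons, was at 0.0727, 0.291 and 0.939 CPM in NeuN- libraries, against 12.9, 7.91 and 6.15 CPM in NeuN+ libraries (log2 difference -4.37, or -5.52 without NeuN- replicate 3). *Bdnf*, a neurotrophin, averaged 1.47 ± 0.588 CPM in NeuN- libraries and 20.5 ± 3.14 CPM in NeuN+ libraries. *Jun*, a factor many cells induce, was higher, at 9.53, 11.1 and 10.5 CPM in NeuN- libraries, against 2.66, 2.83 and 2.12 CPM in NeuN+ libraries. *Arc*, a regulator of glutamate receptors at the synapse, was at 5.75, 4.80 and 5.63 CPM in NeuN- libraries, against 6.85, 6.35 and 3.37 CPM in NeuN+ libraries, overlapped between the fractions and was not called (adjusted p = 0.907, edgeR). After CFC, in other libraries, the *Arc* difference was -2.80 at 10 minutes and -1.74 at 30 minutes.

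In 4 lists of general functions the medians stayed near that of all genes tested, of which 37.2% were higher and 35.8% lower. Chaperones (24 tested, 6 higher, 9 lower, median 0.08), DNA break signalling and repair (23 tested, 7 higher, 8 lower, median -0.02), chromatin (30 tested, 11 higher, 15 lower, median -0.16) and ligands that reach glia (23 tested, 10 higher, 11 lower, median -0.07) had medians of 0.59, 0.49, 0.36 and 0.45 with library totals alone, which turned the sign of the last 3. Without NeuN- replicate 3 the median was 0.02 for DNA breaks and 0.04 for ligands. Single members were far from the median. The small heat shock gene *Cryab* averaged 12.03 ± 0.804 CPM in NeuN- libraries and 0.324 ± 0.306 CPM in NeuN+ libraries. *Trp53*, the gene of p53, averaged 31.3 ± 1.59 CPM in NeuN- libraries and 7.25 ± 0.818 CPM in NeuN+ libraries. *Trp53bp1*, whose product binds beside broken ends, averaged 79.3 ± 1.92 CPM in NeuN- libraries and 157 ± 5.01 CPM in NeuN+ libraries. Among chromatin genes, *Rest*, the repressor of neuronal genes, averaged 15.1 ± 0.240 CPM in NeuN- libraries and 0.685 ± 0.243 CPM in NeuN+ libraries. *Actl6b*, the neuron-specific subunit of the BAF remodelling complex, was at 1.16, 1.82 and 1.64 CPM in NeuN- libraries, against 40.5, 39.2 and 35.2 CPM in NeuN+ libraries.

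Of 23 ligand genes tested 10 were higher and 11 lower, or 12 and 9 with library totals alone. With TMM scaling 37.2% of all genes tested were higher and 35.8% lower. The pairs below include ligands on the side of their receptor and on the other side. *Nrg3*, a neuregulin, averaged 298 ± 66.8 CPM in NeuN- libraries and 7241 ± 126 CPM in NeuN+ libraries, while *Erbb3*, a neuregulin receptor, averaged 46.7 ± 1.93 CPM in NeuN- libraries and 0.0992 ± 0.0977 CPM in NeuN+ libraries. *Cx3cl1*, the fractalkine that *Cx3cr1* binds, was at 7.13, 8.65 and 13.8 CPM in NeuN- libraries, against 100.4, 106 and 103 CPM in NeuN+ libraries (log2 difference -3.39). The 2 ligands of *Csf1r* differed in opposite ways: *Csf1* averaged 63.9 ± 3.84 CPM in NeuN- libraries and 8.37 ± 2.32 CPM in NeuN+ libraries, and *Il34* averaged 10.2 ± 3.02 CPM in NeuN- libraries and 26.9 ± 0.360 CPM in NeuN+ libraries. *Tgfb1* and its receptor *Tgfbr1* were both higher in NeuN-. *Tgfb1* was at 22.1, 22.8 and 21.8 CPM in NeuN- libraries, against 0, 0 and 0.385 CPM in NeuN+ libraries, and *Tgfbr1* differed by 5.25 on the log2 scale. Of 26 receptor genes 24 were higher, *Tyro3* was lower, though not with library totals alone, and *Erbb4* was not called (median 5.28).

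Called genes were then placed in the hippocampal saline populations, which share no library with the mPFC fractions. Of 5812 genes called higher with a read there, 41.9% had their highest mean in PU.1+, 30.2% in 3X-, 27.0% in GFAP+ and 0.843% in NeuN+ nuclei. Of all 15464 tested genes with a read, 4670 genes (30.2%) were highest in PU.1+, 3395 (22.0%) in 3X-, 2780 in GFAP+ and 4619 (29.9%) in NeuN+ nuclei, and of the 4066 genes not called 37.7% were highest in PU.1+ nuclei. Of 5586 genes called lower, 71.2% were highest in NeuN+ nuclei. Among genes higher by more than 4 on the log2 scale 0.235% were highest in NeuN+ nuclei, and among those lower by more than 4 it was 96.5%. By list, 29 of 29 astrocyte genes called higher were highest in GFAP+, 31 of 31 oligodendrocyte genes in 3X- and 31 of 31 microglial genes in PU.1+ nuclei. All 17 endothelial and 8 mural genes called higher were highest in GFAP+ nuclei. The populations are of another region, kit version and treatment.

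By gene length, of 2025 genes of 100 kb or more 36.6% were higher and 54.8% lower in NeuN- (median -0.28), against 37.2% and 35.8% of all genes tested. The share called higher was near that of all genes, and the share called lower was above it. The median of all genes was 0.04, or 0.55 with library totals alone, a scaling under which genes were not split by length. Of 4029 genes between 1 and 10 kb, 39.1% were higher and 27.5% lower (median 0.24). Protein-coding genes were called higher in 40.1% of 12529 tested, and long intergenic noncoding RNAs in 38.5% of 616. None of 94 small nucleolar RNA genes was called higher and 12.8% were called lower, 12 genes of which 8 lie in the *Meg3* stretch.

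Phosphorylated histone H2AX (γH2AX), a mark of DNA double-strand breaks, had been mapped by ChIP-seq in whole mPFC, with naive and CFC peaks joined into 1 list. The copy used here holds 260 peaks and is shorter than the list the study describes. The 283 genes of these peaks included 276 that were tested here. Of these, 59.1% were lower in NeuN- and 25.4% were higher, against 35.8% and 37.2% of all genes tested, and 43 genes were not called, with a median of -0.97. Restricted to peaks with a single gene, 60.3% of 239 were lower. *Ankrd33b* (peak at chr15:31282305-31368845) was lower by the most, at 2.84, 3.34 and 7.82 CPM in NeuN- libraries, against 238, 275 and 283 CPM in NeuN+ libraries. One peak (chr12:109540939-109751881) spans the stretch of *Meg3*, *Rian* and *Mirg* described above. On the other side *Id3*, an inhibitor of helix-loop-helix factors (peak at chr4:136143430-136146921), was at 4.51, 3.85 and 4.77 CPM in NeuN- libraries, against 0.102, 0 and 0.0961 CPM in NeuN+ libraries. *Glul*, *Sox8* and *Ddit4* followed it. The peaks come from tissue in which both kinds of nuclei are mixed.

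The same contrast in libraries made after CFC gave close counts, over the genes chosen by their level in naive mPFC. Genes above the filter only after CFC were left out. At 10 minutes 5924 genes (37.9%) were higher and 5481 (35.0%) lower, and at 30 minutes 5861 (37.5%) were higher and 5650 (36.1%) lower (edgeR, 3 libraries a group). Of the 11413 genes called in naive mPFC, 10370 were called the same way at 10 minutes and 32 the other way, and 10345 and 43 at 30 minutes. *Homer1*, a scaffold of the postsynaptic density, differed by -2.71 in naive mPFC, -3.46 at 10 minutes and -3.96 at 30 minutes. The difference between these contrasts was not tested here.

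In naive hippocampus, fitted with the naive mPFC libraries, 5881 genes (35.6%) were higher and 5791 (35.0%) lower in NeuN- of 16539 tested, with 3 NeuN- and 4 NeuN+ libraries after 2 identical NeuN- libraries had been counted as 1. Of the genes called in naive mPFC 9722 were called the same way and 289 the other way. The test of the difference between the regions, mPFC minus hippocampus, called 1832 genes (11.1%) with a larger value and 2278 (13.8%) with a smaller value in mPFC. For 312 of them the fractions differed in opposite directions. The mPFC and hippocampal libraries were made with different versions of the library kit, so region and kit cannot be told apart.

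**Figure D5:**
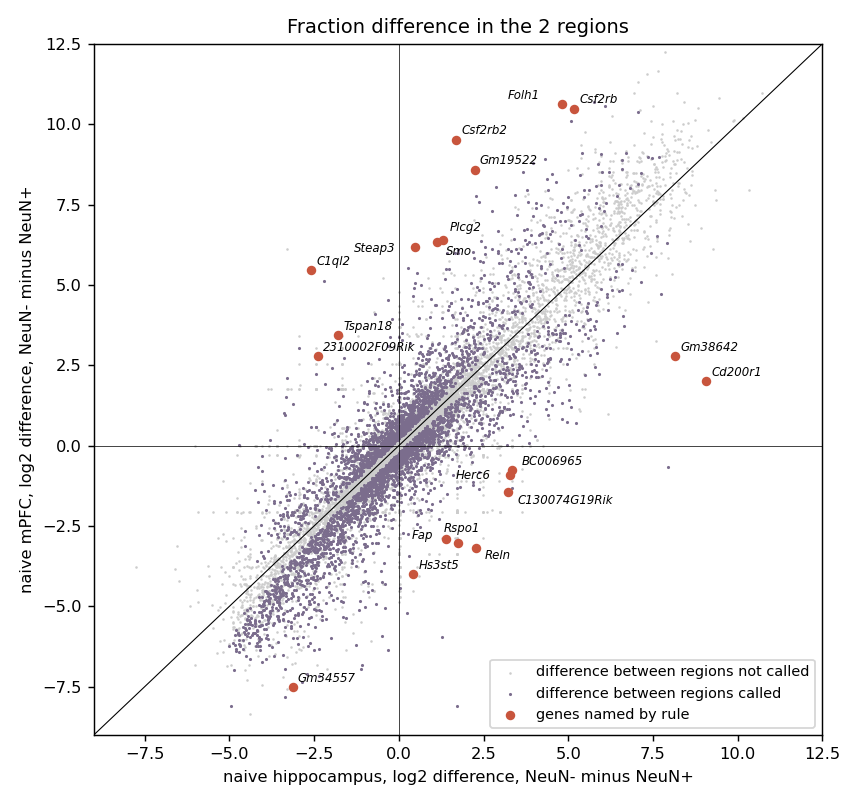
Log2 difference (NeuN- minus NeuN+) of each gene in naive mPFC (y axis) against that in naive hippocampus (x axis); purple points are the 1832 and 2278 genes whose difference between regions was called, red points the 20 named by rule, and the diagonal marks equal differences. *Reln* lies at -3.20 in mPFC and 2.28 in hippocampus, below the diagonal, and *Tspan18* at 3.44 and -1.80, above it.

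*Reln*, the secreted protein of Cajal-Retzius cells and some interneurons, turned between the regions. In this fit it was at 14.97 to 15.51 CPM in mPFC NeuN- libraries, against 132.5 to 145.2 CPM in mPFC NeuN+ libraries, and at 368.7 to 483.4 CPM in hippocampal NeuN- libraries, against 79.68 to 99.94 CPM in hippocampal NeuN+ libraries. The regions differed by -5.47 on the log2 scale (SE 0.13; adjusted p = 1.16e-17, edgeR). In the hippocampal saline populations *Reln* was highest in 3X- nuclei, at 921.3 CPM. *Tspan18*, a tetraspanin, turned the other way. It averaged 37.5 CPM in mPFC NeuN- libraries, against 3.44 CPM in mPFC NeuN+ libraries, and 35.5 CPM in hippocampal NeuN- libraries, against 124 CPM in hippocampal NeuN+ libraries (difference 5.24, SE 0.16; adjusted p = 3.8e-16, edgeR). For *Tspan18* the NeuN- means were close between regions and the NeuN+ means were not.

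Other genes larger in mPFC also had a higher NeuN+ mean in hippocampus. *Smo*, the transducer of hedgehog signals, averaged 26.6 CPM in mPFC NeuN- libraries, against 0.319 CPM in mPFC NeuN+ libraries, and 23.1 CPM in hippocampal NeuN- libraries, against 10.5 CPM in hippocampal NeuN+ libraries (difference 5.19, SE 0.27; adjusted p = 2.28e-12, edgeR). *Plcg2*, a phospholipase of microglial receptors, averaged 82.1 CPM in mPFC NeuN- libraries, against 0.956 CPM in mPFC NeuN+ libraries, and 60.9 CPM in hippocampal NeuN- libraries, against 24.6 CPM in hippocampal NeuN+ libraries (difference 5.09). *Steap3*, an iron reductase, averaged 24.4 CPM in mPFC NeuN- libraries, against 0.323 CPM in mPFC NeuN+ libraries, and 13.4 CPM in hippocampal NeuN- libraries, against 9.58 CPM in hippocampal NeuN+ libraries (difference 5.72). *C1ql2*, a synaptic organiser of dentate granule cells, averaged 0.441 CPM in mPFC NeuN- libraries, against no read in mPFC NeuN+ libraries, and 1.42 CPM in hippocampal NeuN- libraries, against 8.42 CPM in hippocampal NeuN+ libraries. *Csf2rb2*, *Gm19522* and *Csf2rb* likewise had no read in mPFC NeuN+ libraries, so that their fitted differences of 7.84, 6.35 and 5.30 are no bounds, and neither is the 8.05 of *C1ql2*. *Folh1*, by 5.81 (7.87 without mPFC NeuN+ replicate 2), and *2310002F09Rik*, by 5.17, completed the 10.

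Among genes smaller in mPFC, *Hs3st5*, a heparan sulfate enzyme, averaged 10.5 CPM in mPFC NeuN- libraries, against 169 CPM in mPFC NeuN+ libraries, and 38.6 CPM in hippocampal NeuN- libraries, against 28.5 CPM in hippocampal NeuN+ libraries (difference -4.44, SE 0.14; adjusted p = 6.11e-16, edgeR). *Fap*, a serine protease, averaged 3.33 CPM in mPFC NeuN- libraries, against 25.03 CPM in mPFC NeuN+ libraries, and 4.15 CPM in hippocampal NeuN- libraries, against 1.502 CPM in hippocampal NeuN+ libraries (difference -4.32). *Rspo1*, an activator of Wnt signalling, averaged 0.694 CPM in mPFC NeuN- libraries, against 5.68 CPM in mPFC NeuN+ libraries, and under 0.43 CPM in both hippocampal fractions. *Cd200r1*, the microglial receptor of the neuronal protein CD200, had no read in hippocampal NeuN+ libraries, and its fitted difference of -7.07 is no bound. *Gm38642*, *C130074G19Rik*, *Gm34557*, *Herc6* and *BC006965* completed the 10, at -5.38 to -4.13.

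The median of the microglial list was 8.08 in mPFC and 7.45 in hippocampus, and that of the astrocyte list 5.50 and 5.11. The median of the cortical layer list was -1.73 in mPFC and 0.23 in hippocampus, and 14 of its genes had a difference called smaller in mPFC. *Cux2*, a factor of upper layers, was at 132, 124 and 121 CPM in mPFC NeuN- libraries, against 373, 388 and 429 CPM in mPFC NeuN+ libraries, and its difference was -1.66 in mPFC and 0.70 in hippocampus. Of genes described above, *St18* differed by 4.87 more in mPFC (adjusted p = 1.89e-16, edgeR). *Pcdh15* differed by -1.92 between the regions, being higher in NeuN- in hippocampus. *Nr3c2* differed by 2.33, with a fraction difference of 0.34 in mPFC and -1.98 in hippocampus (adjusted p = 4.5e-15, edgeR).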

How the data were processed

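Nuclei were sorted by NeuN, and RNA was made into libraries with the SMARTer stranded total RNA Pico kit (a later version for hippocampus than for mPFC). Per the study's methods, the authors cut 3 bases (Trimmomatic) from the start of read 1 for mPFC and of read 2 for hippocampus, mapped reads to GRCm38 by HISAT2, dropped duplicates by Picard, and used featureCounts to sum reads across introns and exons of each gene. The deposited tables hold raw whole-number counts per gene, with no normalization. The strand setting of the counting is not given in the sources used here, so overlapping and antisense genes are uncertain. The deposited γH2AX peaks (Bowtie2, MACS2, bedtools) are a merged list of naive and CFC whole tissue, used by position only.

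Members and gene lists were chosen with earlier results of these data known. IDs were matched to GENCODE names (53682 of 53749), and the rest took 0.0266% of mPFC counts. Counts of the 18 mPFC libraries in 6 groups were fitted with edgeR 4.0.16 (R 4.3.3), TMM scaling, the quasi-likelihood test and Benjamini-Hochberg adjustment over all genes tested, at adjusted p under 0.05. Tested were genes with a mean gene-body FPKM above 0.2 in at least 1 naive mPFC group, or for the regions in at least 1 naive group of either region. A list member that passed the filter only through the fraction where it is high had to differ, so counts over tested members describe the lists and do not test them. The difference between regions was an interaction term over 13 naive libraries, with the hippocampal NeuN- libraries that were identical counted once. CPM values use TMM-scaled library totals, and FPKM divides them by gene-body length. At these depths, 3 counts over a group equal 0.0745 CPM in NeuN- and 0.0986 CPM in NeuN+, for counting error only.

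Most named genes followed fixed rules: members of the lists, the 15 largest differences a direction, the 10 most abundant protein-coding or long noncoding genes a fraction by FPKM, and the 10 largest differences between regions a direction. The microRNA hairpins, *Rtl1* and the peak gene *Ankrd33b* were named outside these rules, after their values were seen. Other settings were DESeq2 1.42.0, limma-voom 3.58.1, other scalings and filters, the replicate number as a block, and leaving out each library. Some genes that the rules name are not reported here. The procedure was tested on simulated data in which few genes were changed. That simulation does not check the scaling in a contrast where most genes differ. The figures were drawn with matplotlib 3.10.9.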

Additional observations from a re-analysis of the deposited data

Results flagged for a closer look

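The fraction difference was tested between mPFC and hippocampus by an interaction term (edgeR, adjusted over all genes), and the 20 genes named by rule passed it. Library kit and region cannot be told apart in any of them. In mPFC the difference was larger, on the log2 scale, by 8.05 for *C1ql2*, 7.83 for *Csf2rb2*, 6.35 for *Gm19522*, 5.81 for *Folh1*, 5.72 for *Steap3*, 5.30 for *Csf2rb*, 5.24 for *Tspan18*, 5.19 for *Smo*, 5.17 for *2310002F09Rik* and 5.09 for *Plcg2*. It was smaller, with values of -7.07 for *Cd200r1*, -5.47 for *Reln*, -5.38 for *Gm38642*, -4.78 for *Rspo1*, -4.66 for *C130074G19Rik*, -4.44 for *Hs3st5*, -4.37 for *Gm34557*, -4.32 for *Fap*, -4.20 for *Herc6* and -4.12 for *BC006965*. Adjusted p-values ran between 1.16e-17 for *Reln* and 0.0104 for *Csf2rb*. In the first 10, all but *C1ql2* had NeuN- means within a factor of 2 between the regions, and each had a higher NeuN+ mean in hippocampus. The call of *Csf2rb* was lost with the replicate block (adjusted p = 0.0527), and that of *Gm34557* without hippocampal NeuN- replicate 2 (adjusted p = 0.109), where it was -3.56. With 1 library left out, *Folh1* was 7.87 (mPFC NeuN+ replicate 2), *Csf2rb* 4.42 (hippocampal NeuN+ replicate 3), *Gm38642* -6.24 (hippocampal NeuN+ replicate 1) and *Gm34557* -6.12 (mPFC NeuN- replicate 1), each by edgeR and still past the threshold.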

How the results depend on the processing

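With library totals alone, 9016 genes were called higher and 3437 lower in NeuN-, against 5814 and 5599 with TMM scaling. Other scalings, tools and filters kept both counts within 1.5 times, apart from testing only genes above an FPKM of 1, which left fewer genes: 3228 higher and 3055 lower, and 1148 larger and 1437 smaller between the regions. Leaving out 1 library at a time gave 5574 to 5821 higher and 5279 to 5385 lower, 1529 to 1840 larger and 2035 to 2380 smaller between the regions, and 356 to 365 list entries higher and 271 to 273 lower. Leaving out 1 library moved the fraction difference of 42 named genes by over 1.5 times in fold, and all remained called. Among those given by level alone, values were 6.23 for *Cryab*, 9.72 for *Dock2*, 10.15 for *Col1a2* and 11.10 for *Tgfb1* without NeuN+ replicate 3, and -6.32 for *Sv2b* and -6.30 for *Drd1* without NeuN- replicate 3. Fitted values with no read left in a fraction are no bounds. Among named genes, *Nfib* became 0.38 and *Srrm2* 0.16 with library totals alone. *Arc* became 0.48 (adjusted p = 0.0402) with library totals alone, 0.012 with upper quartile scaling, 0.013 with no filter and 0.031 with limma-voom, and lay between -0.29 and 0.15 with 1 library left out. *Malat1* was -0.024 above an FPKM of 1, lay between -0.003 and 0.04 with 1 library left out, and was called higher, by 0.53, with library totals alone. With corticosterone in place of saline libraries, 72.8% of genes called lower were highest in NeuN+ nuclei, and on the gene's strand alone the PU.1 letters were in 19.2% of microglial promoters. Same-numbered NeuN- and NeuN+ libraries deviated together only weakly (r of 0.04, 0.0568 and 0.0812), although each correlated best with its own number. With the replicate block 5822 genes were higher and 5587 lower, and 1615 larger and 2062 smaller between the regions. The depth limits low genes: NeuN+ libraries without a read allow up to 0.0986 CPM over the group. The cause of these changes was not tested, except where fewer genes were tested.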
